A study of Homo sapiens with 24 samples.

Results

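FaDu is a cell line from a squamous cell carcinoma of the hypopharynx, grouped here with head and neck squamous cell carcinoma. The data described are from 1 two-color microarray of the 24 in the series, on which RNA of FaDu cells transfected with miR-375 was labelled with Cy5 and RNA of FaDu cells transfected with a control miRNA was labelled with Cy3. The array was chosen by its label alone, and no measured value entered the choice. Per the labels small RNAs were transfected with Lipofectamine RNAiMAX, and the ratio compares miR-375 with control miRNA, not with untreated cells. The dose and time of transfection are not given in the sources used here, and the mature miRNA itself was not measured. The 2 other FaDu arrays served as background: si-LAMB3 (an siRNA against a laminin chain) over control siRNA, and wogonin (a plant flavone) over DMSO, its solvent control. With 1 array per condition and dyes not swapped, no p-value could be computed for any gene, and "lower" and "higher" are used for log2 ratios (miR-375 over control) at or below -1 and at or above 1. The error given beside a gene is the technical error that the scanner software assigns to its ratio, on the log2 scale, and does not hold the spread between cultures.

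A microRNA guides the Argonaute protein to messenger RNAs that pair with its seed, the bases near its 5′ end, and the bound messages are usually degraded or translated less. miR-375 is known best from pancreatic islets and is often reduced in head and neck squamous tumors, where it has been described as a tumor suppressor. The mature strand of miR-375 (RefSeq, GRCh38.p14, chr2:219001648-219001669, minus strand) is shown with its seed, bases 2 to 8, in capitals, because the search for sites below rests on it.
hsa-miR-375-3p: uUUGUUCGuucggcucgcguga

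Of 58717 non-control spots on the array 577 were flagged by the software and none was saturated, and 63.0% of spots in the Cy3 channel and 63.9% in the Cy5 channel were well above background. The Cy3 share was within the range of the other 15 arrays of the design for Cy3 (55.0% to 67.6%), while the Cy5 share was below all of theirs (64.4% to 68.9%). The 770 measured probes printed in 5 or more spots had a median SD of 0.062 over their spots. Both channels were checked against the label of the cell line. Across probes the control channel correlated with the 4 channels of the other FaDu arrays at r = 0.963 to 0.968 and with the 26 channels of other lines at r = 0.854 to 0.917, and the miR-375 channel at r = 0.974 to 0.977 and 0.860 to 0.933. SMAD4, a signal carrier of TGF-beta that FaDu cells are known to have lost, had no signal well above background here or on the other FaDu arrays. It was well above background in all channels of the SAS tongue cancer line.

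The miR-375 array held many large ratios. Of 14870 genes measured, 2002 were lower (13.5%) and 1570 were higher (10.6%), with a median log2 ratio of 0.02 over all genes. On the si-LAMB3 array 4.44% of genes were lower and 5.15% higher, and on the wogonin array 2.98% were lower and 5.68% higher. The SD of the log2 ratios over genes was 1.03 with miR-375, against 0.64 with si-LAMB3 and 0.58 with wogonin in the same line. Among the 16 arrays of the design, miR-24 in PC3 alone had a wider spread (1.05). Of the lower genes 428 were not well above background in the miR-375 channel, and of the higher genes 315 were so in the control channel. Where a lower gene had more than 1 measured probe, all probes were at or below -1 in 266 of 495 genes and at least 1 probe was above 0 in 65.

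**Figure D1:**
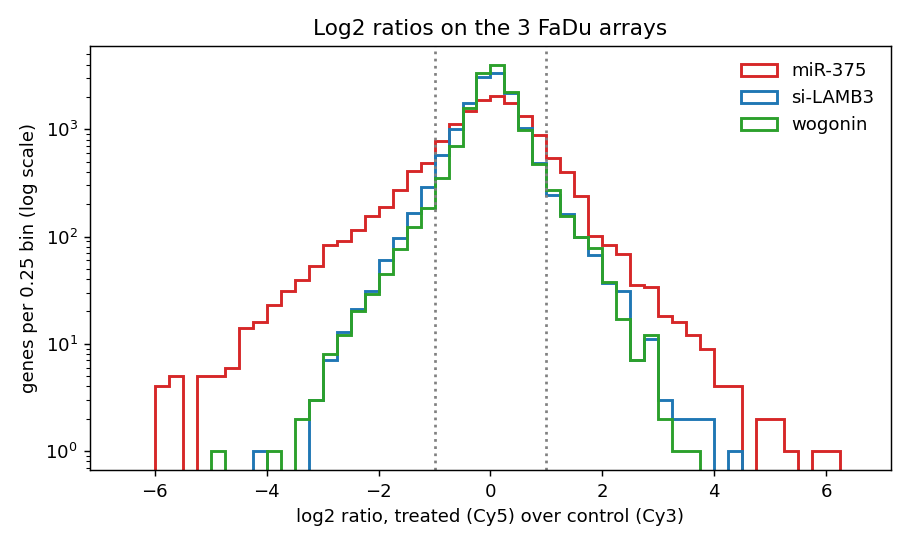
Number of genes per 0.25 of log2 ratio (x axis, treated over control) on the 3 FaDu arrays, with the y axis on a log scale and dotted lines at -1 and 1. The miR-375 line is the widest, with SDs of 1.03, 0.64 and 0.58 for miR-375, si-LAMB3 and wogonin.

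The changes with miR-375 were mostly not those of the other FaDu treatments. Over genes the log2 ratios correlated at r = 0.04 with si-LAMB3 and r = 0.04 with wogonin, and at r = -0.18 to 0.24 with all 15 other arrays, as a description over genes that share a platform and a dye orientation. Of 14074 genes measured on all 3 FaDu arrays, 1011 were lower with miR-375 while above -0.5 on the other FaDu arrays (7.18%), and 1010 were higher while below 0.5 there (7.18%). The same counts with si-LAMB3 in the place of miR-375 were 293 (2.08%) and 225 (1.6%), and with wogonin 118 (0.838%) and 278 (1.97%). The miR-375 array lay on 1 slide and the other FaDu arrays on another, so treatment and slide cannot be told apart in this comparison.

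The genes with the largest falls came from several functions. HMOX1, heme oxygenase 1 and a classic oxidative stress gene, was lowest, at -5.60 with an error of 0.57, and its 10 spots lay between -5.65 and -5.56 (probe at hg19 chr22:35790122-35790181). The same gene was at 2.33 with si-LAMB3 and 1.10 with wogonin. UNC5B, a netrin receptor, was at -5.58. S100P, a calcium-binding protein, was at -5.13, against 2.32 with si-LAMB3 and -3.00 with wogonin. TGM1, the transglutaminase that crosslinks the cornified envelope, was at -5.00, and KRT4, a keratin of the mucosal epithelium, at -4.69. The 12 largest falls also included the signalling ligand WNT6 (-4.95), the imprinted zinc finger gene PEG3 (-4.91), the neuronal intermediate filament INA (-4.90), myoglobin MB (-4.74), the calcitonin gene CALCA (-4.69) and the myosin light chain MYL9 (-4.37). Several of these genes were lower on the wogonin array too: PEG3 was at -1.53 there, TGM1 at -1.50, CALCA at -1.34 and UNC5B at -1.17. PEG3 was at -1.0 with si-LAMB3 and TGM1 at 1.36.

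The largest rises were led by a cytokine receptor. IL7R, the interleukin-7 receptor chain, stood at 6.11 with an error of 0.62 (probe at hg19 chr5:35876781-35876840), against 0.37 with si-LAMB3 and -2.09 with wogonin. IL24, a cytokine of the IL-10 family, was at 4.48 and both of its probes were above 4. MMP13, a collagenase, was at 4.26, and BST2, the interferon-induced tetherin, at 4.24. HOXD10, a homeobox transcription factor, was at 4.24, and TFCP2L1, a transcription factor of epithelia and stem cells, at 4.27. The list went on with the proteoglycan SPOCK1 (4.06), the lymphatic growth factor VEGFC (3.94), the vesicle GTPase RAB3A (3.87), the carbonyl reductase CBR3 (3.86), the ectonucleotidase NT5E (3.81, and 5.39 in a second probe that was dim in the control) and the connexin GJC1 (3.64).

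Some of the largest changes were near 0 on both other FaDu arrays. Besides INA, the falls of this kind were LCN2, an iron-siderophore binding protein (-4.22), ALDH2, the mitochondrial aldehyde dehydrogenase (-4.11), AGR2, a disulfide isomerase of secretory cells (-4.02), PITPNM3 (-4.01), the imprinted long noncoding RNA H19 (-3.91), ZNF469 (-3.84), TRO (-3.68), the metalloproteinase inhibitor TIMP3 (-3.65) and the folate receptor FOLR1 (-3.58). The rises, besides HOXD10 and RAB3A, were the bradykinin receptor BDKRB1 (3.31), the homeobox gene LHX2 (3.19), LOC389831 (2.99, other probe 2.03), DOCK10 (2.93), ORC1, the largest subunit of the origin recognition complex (2.91), CD83 (2.90), SCARNA10 (2.82) and the sphingosine receptor S1PR3 (2.82). For each of these genes both other FaDu arrays were within 0.5 of 0, as the rule for naming them required. That does not make them particular to miR-375. AGR2 was at or below -1 on 6 other arrays of the design, PITPNM3 on 5, ZNF469 on 4 and H19 on 3, while INA and ALDH2 were so on none. Of all 2002 lower genes 745 were past the limit on no other array of the design, and of 1570 higher genes 637.

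Genes reported elsewhere as targets of miR-375 were not lower as a group. Of 36 genes listed 32 were measured, 5 were lower (15.6%, against 13.5% of all genes), 4 were higher (12.5%, against 10.6%), and their median was 0.02, the same as that of all genes. On the other 15 arrays the median of the same genes lay between -0.11 and 0.19. SLC7A11, the cystine transporter, was lowest at -2.36 with an error of 0.30, against 0.21 with si-LAMB3 and -0.14 with wogonin. YAP1, the coactivator of the Hippo pathway, was at -1.73 with an error of 0.26, and its 9 spots lay between -1.78 and -1.70 (probe at hg19 chr11:102100584-102100643). It was at -0.68 with si-LAMB3 and -0.18 with wogonin. The growth-related transcription factor PLAG1 (-1.54), the ligand WNT5A (-1.19) and the receptor ERBB2 (-1.11) were the other members past -1. On which side of the ratio these falls lay is given with the single channels below.

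Further reported targets were near or above 0. MTDH, an oncogene known as AEG-1 and a target often cited in head and neck cancer, was at 0.37 with an error of 0.21. LDHB, a lactate dehydrogenase subunit, was at 0.70 and its second probe at 0.66. JAK2, a cytokine receptor kinase, was at 0.19, IGF1R, the IGF-1 receptor, at -0.01, and PDPK1, the kinase that activates AKT, at 0.42. TIMM8A (1.43), the mRNA decay factor ZFP36L2 (1.53) and MMP13 were higher. FZD8, a Wnt receptor whose control signal was not well above background, was at least 7.86-fold higher with miR-375, on the bound set by the lowest signal well above background in that channel. CIP2A, an inhibitor of the phosphatase PP2A, was dim in both channels (not well above background), as were ELAVL4 and CADM1. Probes of QKI disagreed in level, with values of -0.74, 0.01 and 0.02.

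**Figure D2:**
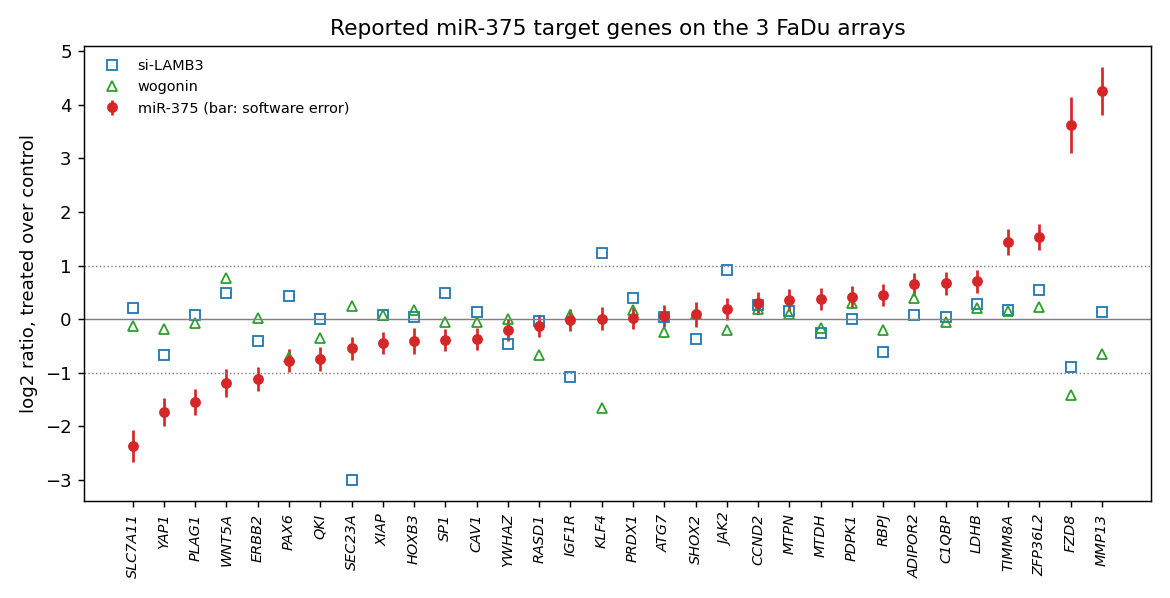
Log2 ratio (y axis) of the 32 measured genes reported as miR-375 targets (x axis, in order) on the miR-375 array (circles, bars the software's error) and on the si-LAMB3 (squares) and wogonin (triangles) arrays. The circles run from -2.36 for SLC7A11 to 4.26 for MMP13 around a median of 0.02, and 23 of the 32 lie between -1 and 1.

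Sites for the miR-375 seed were then searched in the 60-base probes, as no transcript sequences were used here. The DNA letters paired with bases 2 to 8 are CGAACAA, those with bases 2 to 7 and an A opposite base 1 are GAACAAA, and the 8-base site joins both, CGAACAAA. The longer match is rare: 14 measured probes held CGAACAA, of which 4 held the 8-base site, and 165 held either 7-base match. The probes with either match had a median log2 ratio of 0.04 against 0.05 for the 26681 without, a difference of -0.01. Of probes with a match 8.48% were at or below -1, and of those without 12.3% were. The 14 probes with CGAACAA had a median of -0.13, and 2 of them were lower (14.3%).

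Some of the measured matched probes that carry a gene name are shown from low to high. Up to 9 bases before the match and 6 after it are given, the match in capitals, in the letters of the probe strand. Measured but not shown were probes of HOXA-AS3 (-0.51 and -0.08), BCORL1 (-0.29) and WBP1L (-0.02). The hg19 positions are those of the whole probes on the array's annotation.
UGT1A6 (chr2:234676521-234676580): cgaatcttgCGAACAAcacgat
MMAA (chr4:146579784-146579843): aacagctaaCGAACAAcatacg
ATRN (chr20:3578630-3581634): tactcctgaCGAACAAAacaggg
PYGL (chr14:51372161-51372220): tccagtgacCGAACAAttaaag
LRFN1 (chr19:39797518-39797577): atccccacaCGAACAAAatccaa
UGT1A6, a glucuronosyltransferase, was at -2.29 and MMAA, a cobalamin chaperone, at -1.11, while the same probes were at 0.93 and 0.33 with si-LAMB3 and at 2.98 and 1.76 with wogonin. ATRN was at -0.19, the glycogen phosphorylase PYGL at 1.03, and LRFN1, whose control signal was not well above background, at 1.40. A further 8-base match, in a probe without a gene name, was at 1.21, and the remaining one at 0.05. The UGT1A6 and MMAA probes were thus the low ones, and none of the 4 measured 8-base matches was below -0.19. The ATRN probe spans an intron on the genome.

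The same search gave another picture for the other miRNAs of the design. On the arrays of miR-29a, miR-27b, miR-24, miR-23b and miR-145, probes with a 7-base match to the miRNA transfected had medians below those of probes without one, with differences from -0.12 (miR-145 in LNCap) to -0.28 (miR-24 in PC3). The matches numbered 232 to 379 on those 7 arrays, and on each the share of matched probes at or below -1 was above that of unmatched probes. For the miR-375 matches the difference on the 15 arrays without miR-375 ran from -0.11 to 0.04, a range that holds the -0.01 of the miR-375 array. No interval was computed for these differences. The search sees the probe alone and not the 3′ untranslated region, so a gene without a match in its probe may hold one elsewhere.

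**Figure D3:**
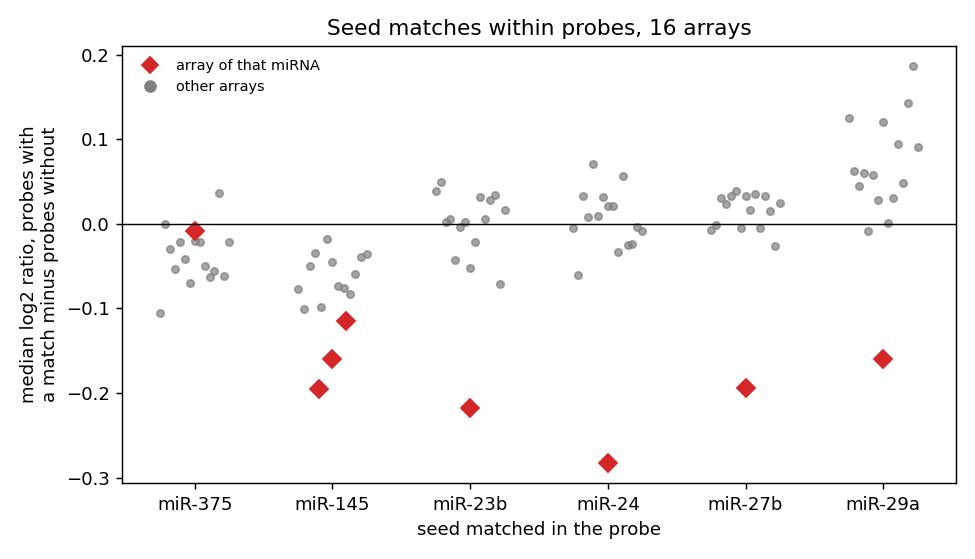
Difference in median log2 ratio (y axis) between probes with and without a 7-base seed match, for the seeds of 6 miRNAs (x axis); red diamonds are arrays on which that miRNA was transfected and grey circles the other arrays of the 16. The diamond of miR-375 lies at -0.01 among its grey circles, while the diamonds of the other miRNAs lie between -0.28 and -0.12, below all of theirs.

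The stress genes of the endoplasmic reticulum were the most uniform group among the lower genes. When unfolded proteins build up, cells induce chaperones of the endoplasmic reticulum through ATF6 and XBP1 and, through the kinase PERK and the factor ATF4, genes of amino acid supply and of stress death. Of the 17 genes of the ATF4 list 16 were lower (94.1%) with a median of -2.36, against 0.41 with si-LAMB3 and -0.84 with wogonin. DDIT3, the factor CHOP, was at -3.72, the pseudokinase TRIB3 at -3.37, the hormone STC2 at -3.17 and the glutathione-degrading enzyme CHAC1 at -3.02. ATF4 itself was at -2.21 and the asparagine synthetase ASNS at -2.70. SLC7A5, a leucine transporter, was the remaining member, at -0.97. ATF3 had 4 probes that disagreed, at -1.32, -1.32, -0.64 and 0.15.

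A list of chaperones and quality control genes of the endoplasmic reticulum, added after these values had been seen, held 18 lower genes of 20 (90%), with a median of -2.18. HERPUD1, which assists degradation at the membrane, was at -4.22, and HSPA5, the chaperone BiP, at -3.95 with an error of 0.42 (probe at hg19 chr9:127997149-127997208). XBP1 was at -3.11 and its 9 spots lay between -3.18 and -3.04. HSP90B1, the chaperone GRP94, was at -2.88 and its other probe at -2.49. Calnexin (CANX) at -0.54 and the translocon subunit SEC61B at 0.19 were the members not past -1. With wogonin HSPA5 was at -0.93 and HERPUD1 at -3.88, and the median of the list was -0.90. Of cytosolic tRNA synthetases, also added later, 5 of 18 were lower (27.8%, against 13.5% of all genes), led by AARS1 (-1.91). In that list 2 were higher (11.1%, against 10.6%).

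The single channels show on which side of the ratio these differences lay. A level is here the log2 signal of a gene minus the 75th percentile of that channel over probes measured on all 3 FaDu arrays. HSPA5 stood at 3.40 in the control of the miR-375 array and at 0.69 and 1.63 in the controls of the si-LAMB3 and wogonin arrays, all labelled with Cy3. In the Cy5 channels it stood at -0.51 with miR-375, -0.15 with si-LAMB3 and 0.67 with wogonin. The control miRNA channel was thus the highest and the miR-375 channel the lowest of the 6. For all 20 chaperone genes the control miRNA channel was above both other FaDu controls, and it was above their mean by a median of 1.84. The miR-375 channel was above both other Cy5 channels for 13 and below both for 7, with a median difference of 0.23 from their mean. For the ATF4 list the control channel was above both other controls for 15 of 17 genes, and above their mean by a median of 1.57. The miR-375 channel differed from the mean of the other Cy5 channels by a median of -0.31. The 2 other controls were unlike for this list. Relative to the median of all genes, its median was 5.0 in the control miRNA channel, 2.7 in the si-LAMB3 control and 4.5 in the wogonin control. DDIT3 was at 2.04 in the control miRNA channel and 1.93 in the wogonin control, and at -2.42 in the si-LAMB3 control. The reported targets past -1 (SLC7A11, YAP1, PLAG1, WNT5A and ERBB2) were also above both other controls in the control miRNA channel. With miR-375 YAP1 (0.82) was below si-LAMB3 (1.65) and wogonin (1.73), and PLAG1 (-0.82) was below them too (-0.04 and -0.29). SLC7A11, WNT5A and ERBB2 lay between the other Cy5 channels with miR-375.

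This asymmetry was seen over all genes as well. Between the control miRNA channel and the mean of the other FaDu controls 1455 of 14870 genes were at least 1 higher and 1106 at least 1 lower. Between the miR-375 channel and the mean of the other Cy5 channels the counts were 694 and 705. The controls differ in kind (control miRNA, control siRNA, DMSO) and slide, and these cannot be told apart from the state of the cells. Every direction given here rests on the dyes as labelled. With no dye swap, whether the 2 channels of the miR-375 array hold the samples named was not tested, and an exchange would turn all directions.

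**Figure D4:**
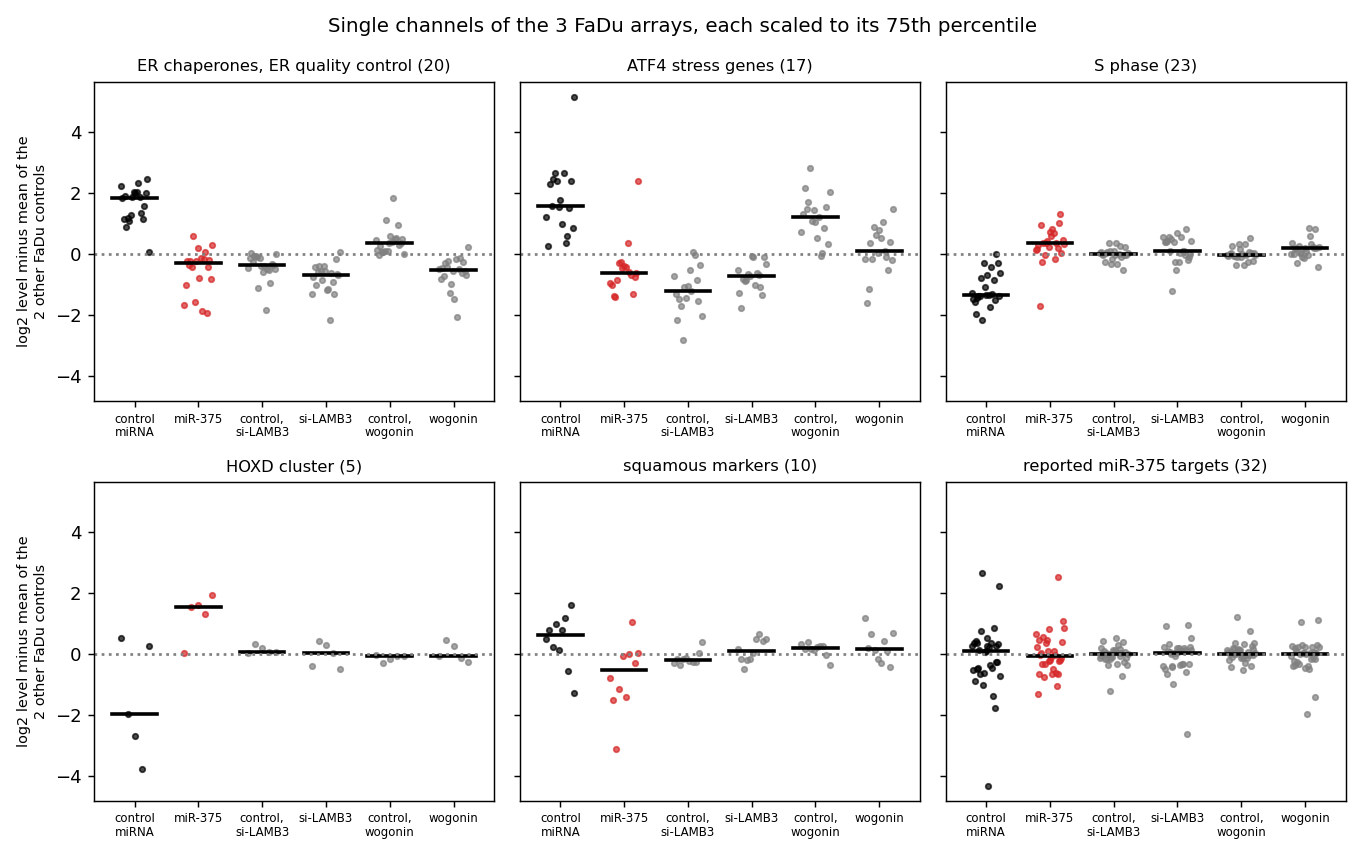
Levels of the genes of 6 lists (points) in the 6 channels of the FaDu arrays (x axis), as log2 differences from the mean of the 2 other FaDu controls (y axis), with medians as bars; black is the control miRNA channel and red the miR-375 channel. The control miRNA channel stands above the other controls for the chaperone and ATF4 lists and below them for the S phase list, and the reported targets lie around 0 in both channels.

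Promoters of these stress genes were searched for the elements known from the unfolded protein response, as members of both lists moved together. The promoters (RefSeq, GRCh38.p14) run from 250 bases before to 50 after the gene's start. The ER stress response element was written as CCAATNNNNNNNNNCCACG and searched on both strands. It was held by 27 of 35116 promoters (0.0769%) and by promoters of 17 measured genes, 7 of them in the chaperone list. Of those 17 genes 10 were lower and none was higher, with a median of -1.17 against 0.03 for the genes without it. Of all 11665 measured genes with a promoter searched, 1539 were lower and 1191 higher. The chaperone list was added after its falls had been seen, so these counts are in part set by that choice and are no separate support. The element is shown in capitals with 5 bases on each side, in the letters of the gene's strand, for members of the chaperone list.
HSPA5 (chr9:125241386-125241414): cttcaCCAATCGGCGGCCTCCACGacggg
HSP90B1 (chr12:103930211-103930239): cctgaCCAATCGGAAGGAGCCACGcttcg
XBP1 (chr22:28800598-28800626): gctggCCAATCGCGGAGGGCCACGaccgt
PDIA6 (chr2:10812848-10812876): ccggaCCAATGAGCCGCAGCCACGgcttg
CRELD2 (chr22:49918549-49918577): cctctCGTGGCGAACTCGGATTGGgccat
CALR (chr19:12938379-12938407): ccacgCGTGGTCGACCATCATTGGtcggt
CANX (chr5:179698773-179698801): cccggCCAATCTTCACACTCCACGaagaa
CRELD2 and CALR hold it on the other strand. Their log2 ratios were -3.95 for HSPA5, -2.88 for HSP90B1, -3.11 for XBP1, -1.17 for PDIA6, -3.33 for CRELD2, -1.64 for CALR and -0.54 for CANX, so that CANX alone of the 7 was not past -1.

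The element bound by ATF4 with C/EBP factors was written as TGATGNAA, and it does not overlap the ER stress element in the promoters shown. It was held by 3.62% of all promoters, by 4 of 15 promoters of the ATF4 list and by 1 of 19 of the chaperone list. Among measured genes with it the median was -0.13, against 0.03 for those without. Of lower genes 5.0% held it and of higher genes 2.77%, against 2.92% of all measured genes with a promoter searched. The matches of 3 strongly lowered genes are shown in the same way.
CHAC1 (chr15:40953257-40953274): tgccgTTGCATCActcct
HERPUD1 (chr16:56931961-56931978): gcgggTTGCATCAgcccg
ASNS (chr7:97872464-97872481): aggcaTGATGAAActtcc
In CHAC1 and HERPUD1 the element lies on the other strand. A match is a description of the letters and does not show that a factor was bound.

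Genes of the NRF2 response, which defends against oxidants, were lower in part. Of 14 members 7 were lower (50%) and none higher, with a median of -1.05. Besides HMOX1, the ketosteroid reductase AKR1C1 was at -3.16 (other probes -3.36 and -5.12, the last dim with miR-375; its near-identical relatives may share signal), GCLC, the catalytic subunit of glutathione synthesis, at -2.30, and SLC7A11 at -2.36, which is in the ATF4 and target lists too. NQO1, a quinone reductase, was at -0.56. HMOX1 had a level of 5.38 in the control miRNA channel, against -0.60 and 1.37 in the other controls, and of -0.18 with miR-375. The control miRNA channel was above both other controls for 13 of the 14 genes.

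Genes of DNA replication were higher. Of 23 S phase genes 17 were higher (73.9%) and none lower, with a median of 1.36, against 0.08 with si-LAMB3 and 0.18 with wogonin. UHRF1, which maintains DNA methylation at replication, was at 2.49 (second probe 2.79), the GINS subunit GINS2 at 2.48, the thymidylate synthase TYMS at 2.39 and the helicase subunit MCM6 at 2.38. MCM5, another helicase subunit, was at 0.21. In a list of origin and replication fork genes added later 10 of 20 were higher, and RFC3, a clamp loader subunit, was at 2.44. Of 22 G2 and M phase genes 5 were higher and none lower, with a median of 0.73, and the kinase BUB1 (2.14) and cyclin CCNA2 (1.76) led them. MCM6 had levels of 0.47 in the control miRNA channel, 1.66 and 2.18 in the other controls, and 2.89, 2.48 and 2.11 with miR-375, si-LAMB3 and wogonin. The control miRNA channel was thus the low one, and it was below both other controls for 21 of the 23 S phase genes.

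**Figure D5:**
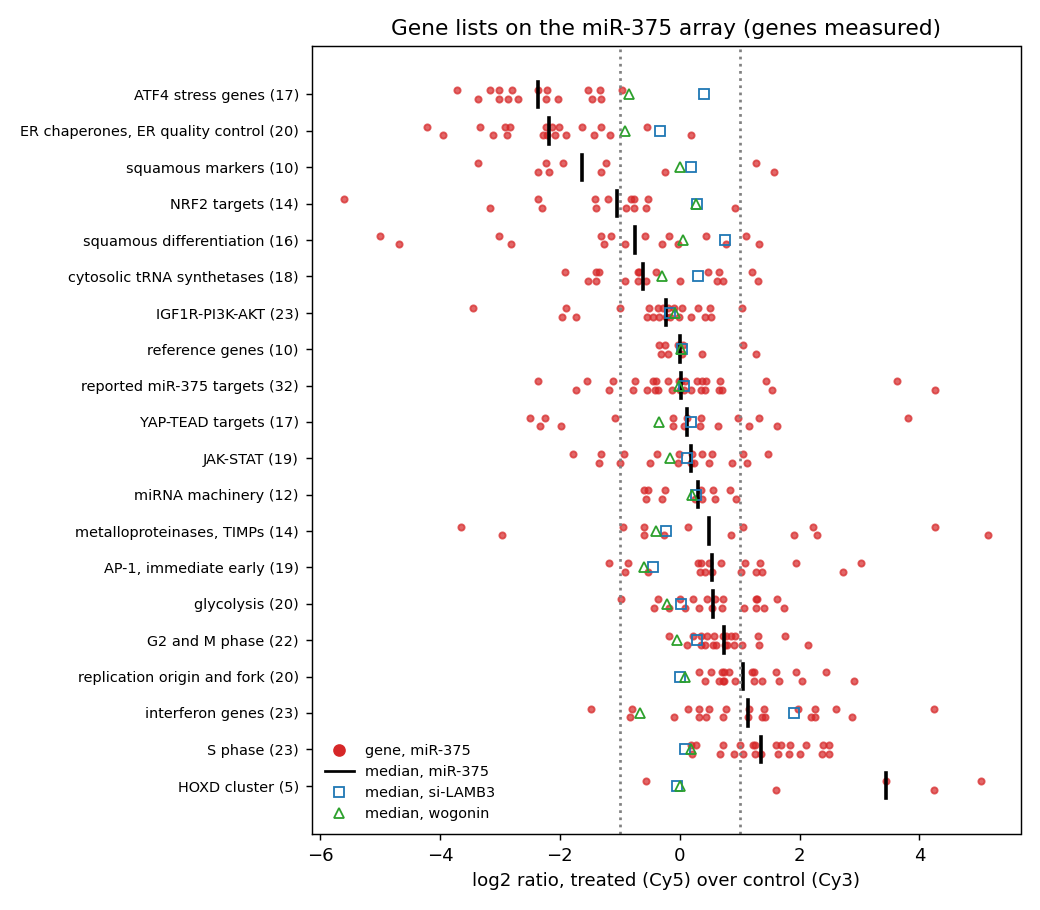
Log2 ratios (x axis) of the measured genes of 20 lists (y axis, number of genes in brackets) on the miR-375 array as points, with their median as a bar and the medians on the si-LAMB3 (squares) and wogonin (triangles) arrays. The ATF4 and chaperone lists lie to the left with medians of -2.36 and -2.18, the S phase and HOXD lists to the right with 1.36 and 3.45 (HOXD 2.53 over genes well above background in both channels), and the reported targets around 0.02.

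Squamous keratins and junction genes were mostly lower. Of 10 squamous markers 7 were lower and 2 higher, with a median of -1.63. The keratins KRT6A (-3.36), KRT14 (-2.36), KRT17 (-2.19) and KRT5 (-1.32), the desmoglein DSG3 (-2.22), the desmocollin DSC3 (-1.23) and E-cadherin CDH1 (-1.95, 10 spots between -2.01 and -1.91) were the lower ones. TP63, the master factor of squamous cells, was at -0.25, and the plakophilin PKP1 (1.58) and stratifin SFN (1.27) were higher. KRT14 had levels of 5.96 and 3.65 in the control and miR-375 channels and between 4.98 and 5.35 in the other 4 FaDu channels, which put the control above and miR-375 below them. Of 16 squamous differentiation genes 7 were lower, among them KRT13 (-3.02) and the calprotectin subunits S100A8 (-1.15) and S100A9 (-1.26). KRT1 was not well above background with miR-375 and was at least 3.44-fold lower. SPRR1B (1.33) and S100A7 (1.10), both of the epidermal differentiation gene complex, were higher. Keratins and S100 genes have close relatives whose RNA may share a probe. The 11 hemidesmosome and laminin-332 genes had none lower, and ITGA6, integrin alpha 6, was the higher one (1.03).

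Markers of other cell types were measured in part. The 5 measured of 8 leukocyte markers were PTPRC, CD14, CD68, CD2 and ITGAM, with CD2 and ITGAM dim in the control. The 2 measured of 5 endothelial markers were CDH5 and VWF. None of these was past 1. CD3E, MS4A1, PECAM1 and KDR were among those not well above background. Of mesenchymal markers 3 of 8 were measured, with COL1A1 at -2.52, ACTA2 at 1.6 and VIM at 0.79. In the list of epithelial to mesenchymal transition 4 of 16 genes were lower (25%, against 13.5% of all genes). ESRP1, an epithelial splicing factor, was lowest (-2.23), N-cadherin CDH2 was at -1.65, the junction protein CLDN1 at -1.19 and the repressor SNAI2 higher at 1.75.

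Interferon genes, metalloproteinases and immediate early genes included higher members. Of 23 interferon genes 12 were higher (52.2%) and IFI27 was lower (-1.48), with a median of 1.14, against 1.91 with si-LAMB3 and -0.66 with wogonin. BST2, RSAD2 (viperin, 2.87), OAS3 (2.26) and HERC5 (2.26) were among them, and OAS1, dim in the control, was at 2.6. Relative to the mean of the other arrays of its slide, which held miR-145 arrays, the median turned to -0.72, and relative to all other treatments of the design it was 0.06. MMP3, stromelysin 1, was at 5.15, a ratio over a control signal not well above background and so not a lower bound. Of 14 genes of the metalloproteinase list 6 were higher: MMP1 (2.28), the urokinase receptor PLAUR (2.23), MMP10 (1.91) and MMP12 (1.05), beside MMP3 and MMP13. The inhibitors TIMP3 (-3.65) and TIMP2 (-2.97) were lower and TIMP1 was at 0.85. Of 19 AP-1 and immediate early genes 8 were higher, with the ERK phosphatase DUSP6 (3.02), FOSL1 (2.72), IER3 (1.94) and DUSP5 (1.37) leading, and FOSL2 was lower (-1.19). SPRY4 had probes at -0.92 and 3.58, the second with a dim control signal. Among 12 cytokines IL6 (3.25, 10 spots between 2.91 and 3.52), IL1A (1.63), IL1B (1.21) and CXCL8 (1.19) were higher and CCL20 lower (-2.26). The control miRNA channel was below both other controls for 16 of 19 immediate early genes and 10 of 12 cytokines. It was so for 10 of 14 metalloproteinase list genes and 12 of 23 interferon genes. The miR-375 channel differed from the mean of the other Cy5 channels by medians of -0.05, -1.49, 0.42 and 0.07 for these 4 lists.

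Pathways downstream of reported targets were mixed, beside 13.5% lower and 10.6% higher over all genes. Of 17 YAP and TEAD target genes 5 were lower (29.4%) and 4 higher (23.5%), with a median of 0.12. CCN2, the connective tissue growth factor, was at -2.50, tissue factor F3 at -2.33, AMOTL2 at -2.24 and TGFB2 at -1.98, while NT5E, TEAD4 (1.63), BIRC5 (1.33) and FJX1 (1.16) were higher and CCN1 was at 0.98. In the IGF1R, PI3K and AKT list 4 of 23 were lower (17.4%), among them IGFBP3, an IGF-binding protein (-3.46), the insulin receptor INSR (-1.90) and the adaptor IRS2 (-1.73). AKT2 had probes at -1.0, -1.27 and 0.07, and IRS1 was the 1 higher gene (1.04, 4.35% of the list). In the JAK and STAT list 4 of 19 were lower (21.1%), led by STAT5B (-1.77), STAT5A (-1.35) and the receptor IL6ST (-1.31). The 3 higher (15.8%) were the feedback inhibitors SOCS3 (1.48), SOCS2 (1.13) and CISH (1.05), and probes of STAT3 were at -0.38 and 0.37. None of the 12 genes of the miRNA machinery was past 1, from AGO3 (-0.60) to AGO2 (0.93).

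Glycolysis genes were higher in 7 of 20 cases and lower in none, with a median of 0.56. They were the kinase PDK1 (1.74), ENO2 (1.62), TPI1 (1.40), PFKM (1.30), LDHA (1.27), GAPDH (1.27) and ENO1 (1.06). GAPDH is a common reference gene, and its 10 spots lay between 1.21 and 1.35. HPRT1 was the other of 10 reference genes past 1 (1.06), and the remaining 8 lay between -0.34 and 0.37. The median of the reference genes was 0.00. For the glycolysis list the control miRNA channel was below both other controls for 17 of 20 genes.

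Of 16 p53 targets 4 (25%, against 13.5% of all genes) were lower and 2 (12.5%, against 10.6%) higher: TP53INP1 (-2.68), GDF15 (-2.62), SESN2 (-2.02) and BBC3 (-1.63) were lower, CDKN1A was at -0.64, and FAS (1.71) and PLK3 (1.04) were higher. The lists that follow are read beside the same 13.5% and 10.6%. Of 13 cyclin D and CDK inhibitor genes CDKN2B (-1.51) and CDKN1C (-1.31) were lower (15.4%) and CCND3 (1.63) was higher (7.69%). Of 15 BCL2 family genes HRK (-2.52) and BBC3 were lower (13.3%) and none higher. Of 20 lipid synthesis genes the regulator SREBF1 (-2.24) was lower (5%) and DHCR7 (1.46) and the fatty acid synthase FASN (1.15) were higher (10%). Of 13 TGF-beta genes TGFB2 and TGFBI (-1.52) were lower (15.4%) and 2 were higher (15.4%). Among the higher, INHBA, dim in the control, was at 1.34 with its 10 spots spread from 0.62 to 2.92. Of 9 EGF receptor and ligand genes the ligand BTC (-1.89) and ERBB2 were lower (22.2%) and none was higher.

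HOXD genes were among the higher genes, in lists of the HOX clusters added after the values had been seen. HOX genes keep a record of position along the body and lie in 4 clusters. Of 9 HOXD genes 5 were measured, with a median of 3.45. HOXD11 was measured through the miR-375 channel alone, where it is high, and over the 4 genes well above background in both channels the median was 2.53. HOXD10 was at 4.24 and HOXD9 at 3.45 (second probe, dim in the control, 2.53), HOXD13 was at 1.61, and HOXD11, dim in the control, was at least 18.4-fold higher. HOXD8 was at -0.56. On the si-LAMB3 and wogonin arrays the medians of these genes were -0.04 and 0.00. HOXD10 had levels of -4.25 in the control miRNA channel and 0.04 with miR-375, while the other 4 FaDu channels lay between -1.75 and -1.28. The control miRNA channel was thus the lowest and the miR-375 channel the highest of the 6. In the other clusters 2 of 10 HOXA (20%), 1 of 9 HOXB (11.1%) and 1 of 8 HOXC genes (12.5%) were higher, against 10.6% of all genes. HOXA13, dim with miR-375, was lower.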

How the data were processed

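RNA of the FaDu cells was hybridised by the authors to Agilent SurePrint G3 8x60K arrays (probes of 60 bases), which were scanned and read with Agilent Feature Extraction 10.7.3.1, per the submitters' processing notes. The deposited log10 ratios (Cy5 over Cy3, background-subtracted and dye-normalized by the software) and the deposited spot intensities were used, and ratios were changed to log2. The study's methods that were read cover the platform, not the miR-375 transfection. Non-control spots without outlier flags were averaged per probe. A probe counted as measured when at least 0.5 of its spots were well above background in 1 channel. Probes were named through RefSeq accessions or symbols (67.0% of 42405 probes, 20514 genes), and each gene was represented by its brightest measured probe. Genes were called by size alone, at log2 ratios of -1 and 1. On simulated data with the array's own errors, for 14870 genes of the miR-375 comparison, 191 of 200 genes lowered by 1.5 and 199 of 200 lowered by 2 were called, and 53 and 41 unchanged genes were. Those errors are technical and do not hold the spread between cultures. The counts therefore do not give the share of false calls among the genes called on the array. Lower bounds used the lowest software-processed signal well above background in the dim channel. Correlations and levels used processed intensities.

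Named genes were the 12 largest falls and rises among genes well above background in both channels with all probes on 1 side of 0, the 10 largest of those within 0.5 of 0 on both other FaDu arrays, fixed reported targets, and up to 4 members of each list past 1 (or its lowest and highest). Further list members, and genes given for their spots, probes or levels, were chosen after their values were seen. Some genes that these rules name are not reported here. The members and lists were chosen with earlier results of these data known. Alternatives were run with limma 3.58.1 (R 4.3.3) and Python 3.11.15. The number of arrays, 1 per condition, limits the precision. The arrays of the other design were not used here.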

Additional observations from a re-analysis of the deposited data

How the results depend on the processing

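The median of the reported targets stayed within 0.22 of its value of 0.02 under all alternatives run, and so did the difference between probes with and without a 7-base match, except with 8-base sites only (4 probes), where it was 0.58. With normexp background correction (offset 50) and loess 1151 genes were lower and 632 higher, and 519 were higher and not on the other FaDu arrays. With loess and no background correction 762 were higher and 617 higher and not on the other FaDu arrays. With a limit of 0.5 the counts were 3905 lower and 3791 higher, and 2344 and 2627 not on the other FaDu arrays. With a limit of 1.5 they were 1104, 632, 475 and 363. The other counts stayed within 1.5 times the values given. Of 231 named or listed genes past 1, 186 to 231 remained past 1 in the same direction under the alternatives that kept all of them. The median of the ATF4 list lay between -2.95 and -2.28, that of the chaperones between -2.23 and -1.53 and that of the S phase list between 1.24 and 1.47.

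Relative to the other arrays of the slide the interferon median turned to -0.72, IFIT1 to -0.68, IFIT2 to -1.54, IFIT3 to -0.14, IFIH1 to -0.73, OAS2 to -0.035, OASL to -1.02, HERC5 to -0.19 and CXCL8 to -0.19. Relative to the other treatments OASL turned to -0.13, and relative to the other FaDu arrays ATF3 turned to 0.11, CLDN1 to 0.39 and S100A7 to -0.60. These shifts follow from the arrays subtracted. Without a filter on dim probes the HOXD median, then over all members on the array, was 0.00, and it was 1.39 with normexp, 1.90 without background correction and 2.53 with genes well above background in both channels. The interferon median was 0.06 relative to the other treatments, 0.64 with normexp and 0.66 relative to the other FaDu arrays. ERBB2 was at -0.61 relative to the other treatments and WNT5A at -0.55 with normexp. Alternatives for the seed matches chosen after seeing the data, with genes in place of probes and with probes well above background in all FaDu channels, gave 0.01 each. The search over any transcript of a gene was not run, as no transcripts were used. No paired analysis was possible because each condition has 1 array. No array could be left out for the same reason, and the ratio's spread between cultures is unknown.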

Other observations

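Long noncoding RNAs were measured for 526 genes, of which 88 were lower (16.7%, against 13.5% of all genes) and 51 higher (9.7%, against 10.6%) with miR-375. Among the 444 well above background in both channels the lowest were UNC5B-AS1 (-4.17), which lies by UNC5B, H19, LINC02035 (-3.74), VLDLR-AS1 (-3.19) and LINC01160 (-3.19). VLDLR, a member of the ATF4 list, was at -2.86. The highest, after LOC389831, were LINC00239 (2.48), LINC02731 (1.94), URB1-AS1 (1.74) and the snoRNA host gene SNHG10 (1.71). With wogonin UNC5B-AS1 was at -0.88, VLDLR-AS1 at -1.14, H19 at -0.14, LINC02035 at 0.68 and LINC01160 at 0.07. With si-LAMB3 UNC5B-AS1 was at 0.27, H19 at -0.34, LINC02035 at 0.25 and LINC01160 at -0.13, and VLDLR-AS1 was not measured.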
